A study of Mus musculus with 6 samples.

Results

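Bone morphogenetic proteins (BMPs) are secreted ligands of the TGF-beta superfamily, and the 10 genes described here cover the line from ligand to response. They are the ligand genes Bmp2, Bmp4 and Bmp7, the antagonist genes Nog and Bambi, and the BMP-responsive genes Msx1, Msx2, Id1, Id2 and Id3. They were taken by gene name from a deposited table of 36699 gene rows, in which each had 1 row of its own. All 10 had been tested by the authors, and 9 of them reached 1 FPKM in at least 1 group (FPKM, fragments corrected for transcript length and for library size). BMP ligands bind a complex of type I and type II serine/threonine kinase receptors, which phosphorylate Smad1, Smad5 and Smad9. These enter the nucleus with Smad4 and act on target genes, among them the Id genes and, in many tissues, the Msx genes. In the mouse embryo at gastrulation, BMP4 from the extraembryonic ectoderm is needed for mesoderm and for primordial germ cells, and antagonists such as Noggin limit where the signal acts.

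Poly(A) RNA was sequenced from mouse A2Lox.cre embryonic stem (ES) cells, a line with a site for doxycycline-inducible transgenes, on day 3 of differentiation as embryoid bodies. The cells with doxycycline (3 libraries) had received it on day 2 for 24 hours to induce a Flag-tagged form of Sp5, a transcription factor of the Sp family with zinc fingers, and the cells without doxycycline (3 libraries) carried the same transgene uninduced. The ES cells had been kept on mouse embryonic fibroblasts before the embryoid bodies were formed. Cells that received doxycycline without a transgene were not analysed here, so the effects of the drug and of Flag-Sp5 cannot be told apart. The labels do not say whether libraries came from separate cultures, so the spread behind the p-values may be technical. The authors deposited 1 FPKM value for each group, so each gene has a pair of values with no SD, and values of single libraries were not analysed here. The depth behind each value is not known, since FPKM values carry no counts. In a bulk culture, a change in the number of cells that express a gene cannot be told apart from a change in RNA per cell.

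Sp5 stood at 126 FPKM with doxycycline and at 0.769 FPKM without it, the direction that the labels state. Of all 18537 tested rows, 23.2% were called (q under 0.05 in the authors' deposited table), 10.5% as higher with doxycycline and 12.7% as lower. Below, "rose" and "fell" are used of called genes only. The 95% intervals are those implied by the authors' test statistic, read as the log fold change divided by its standard error (SE). They rest on that statistic alone and hold for the libraries the authors pooled. The SE so obtained was between 0.07 and 0.25 on the log2 scale for the 10 genes, against a median of 0.11 over tested rows with 1 FPKM or more in the higher group.

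Of the 10 genes, 8 rose and none fell in the authors' Cuffdiff test, and at an unadjusted p under 0.05 none was lower either. Of all tested rows 10.5% rose and 12.7% fell, so at that share few of 10 genes would fall in any case. The other two, Bmp2 and Bmp7, were not called. The median log2 fold change of the 10 was 1.16, against -0.03 over all tested rows with a fold. The 10 genes were chosen with earlier results of these data known, so these contrasts with all tested rows are a description and no test. By size the 10 fell into steps. Nog, Msx2, Msx1 and Bmp4 had log2 fold changes between 2.21 and 2.71, with overlapping intervals from each gene to the next. The interval of Bmp4 did not overlap that of Id1, nor did that of Id1 overlap that of Id3. Below Id1 followed Id3, Id2, Bambi, Bmp2 and Bmp7, each interval overlapping the next. At least 2-fold rises were those of 5 genes, namely Nog, Msx2, Msx1, Bmp4 and Id1, and 3.54% of all tested rows rose by that much.

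**Figure D1:**
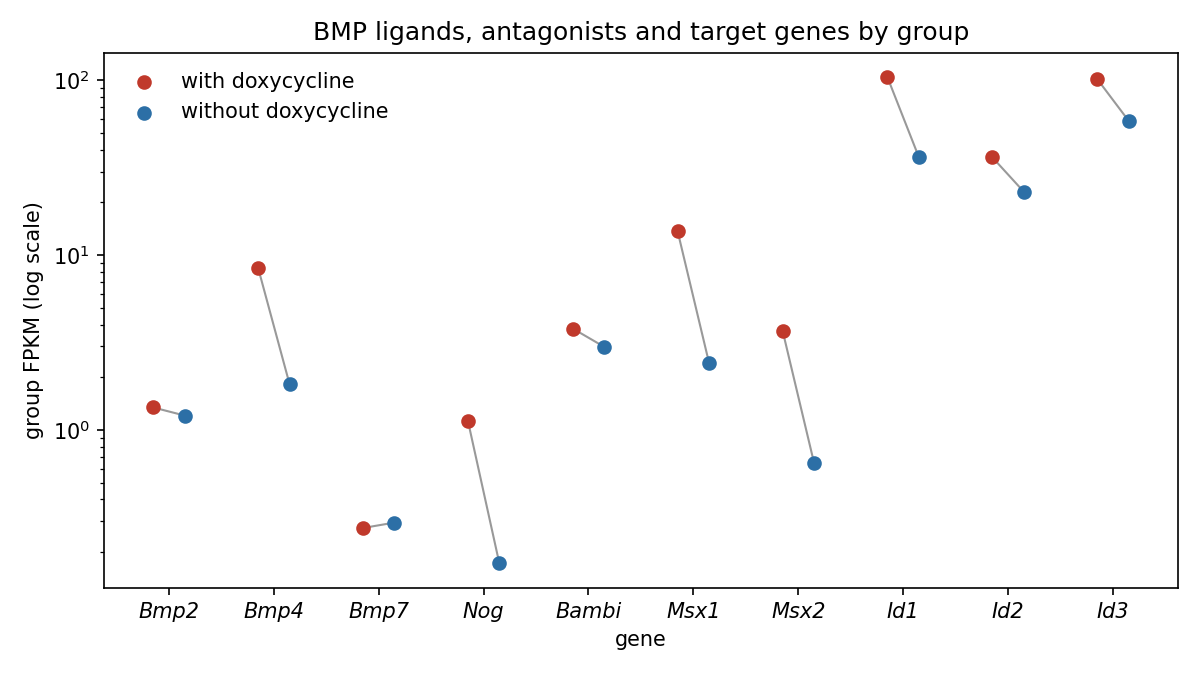
Group FPKM (log axis) of the 10 genes in cells with doxycycline (red, left point of each pair) and without it (blue, right point); each point is the authors' single value for 3 libraries, so there are no error bars. The red points of Id1 (104 FPKM) and Id3 (101 FPKM) stand highest, and the pairs of Nog, Msx1, Msx2 and Bmp4 are the farthest apart.

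The promoter windows of Bmp4, Msx1, Msx2, Id2 and Id3 are shown because Sp factors are known to bind GC boxes. They are the 5 of the 10 genes that were matched in the promoter table, and Nog, Bambi and Id1, which also rose, are not among them. The 5 rose by amounts from 1.57-fold for Id2 to 5.71-fold for Msx2. The sequences are those of RefSeq on build GRCm38.p6, each 300 bases long, from 250 bases before the gene's start to 50 bases after it, read 5′ to 3′ on the gene's strand. Capitals mark each match to the GC box core GGGCGG or, on the other strand, CCGCCC.
Bmp4 (chr14:46390620-46390919, minus strand): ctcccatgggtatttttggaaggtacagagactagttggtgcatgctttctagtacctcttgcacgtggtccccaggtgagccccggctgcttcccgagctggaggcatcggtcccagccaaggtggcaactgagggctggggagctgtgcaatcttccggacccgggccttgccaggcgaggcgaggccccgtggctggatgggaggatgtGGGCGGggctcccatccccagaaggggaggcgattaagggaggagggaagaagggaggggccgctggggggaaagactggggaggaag
Msx1 (chr5:37824536-37824835, minus strand): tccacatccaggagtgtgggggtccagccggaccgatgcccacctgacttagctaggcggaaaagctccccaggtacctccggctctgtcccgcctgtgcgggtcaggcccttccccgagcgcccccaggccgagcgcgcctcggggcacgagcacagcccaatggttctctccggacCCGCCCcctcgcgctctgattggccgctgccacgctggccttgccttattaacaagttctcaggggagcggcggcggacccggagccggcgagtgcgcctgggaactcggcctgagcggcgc
Msx2 (chr13:53472731-53473030, minus strand): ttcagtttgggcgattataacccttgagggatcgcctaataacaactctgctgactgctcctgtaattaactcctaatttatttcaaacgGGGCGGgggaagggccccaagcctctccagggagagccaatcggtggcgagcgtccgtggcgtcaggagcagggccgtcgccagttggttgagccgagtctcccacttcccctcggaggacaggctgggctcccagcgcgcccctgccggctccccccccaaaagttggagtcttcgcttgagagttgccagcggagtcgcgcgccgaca
Id2 (chr12:25096043-25096342, minus strand): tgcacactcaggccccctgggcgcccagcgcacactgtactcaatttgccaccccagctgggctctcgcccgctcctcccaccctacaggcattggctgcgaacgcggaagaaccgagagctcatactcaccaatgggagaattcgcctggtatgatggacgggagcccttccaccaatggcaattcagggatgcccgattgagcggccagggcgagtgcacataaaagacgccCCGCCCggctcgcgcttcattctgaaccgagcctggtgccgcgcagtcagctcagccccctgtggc
Id3 (chr4:136143572-136143871, plus strand): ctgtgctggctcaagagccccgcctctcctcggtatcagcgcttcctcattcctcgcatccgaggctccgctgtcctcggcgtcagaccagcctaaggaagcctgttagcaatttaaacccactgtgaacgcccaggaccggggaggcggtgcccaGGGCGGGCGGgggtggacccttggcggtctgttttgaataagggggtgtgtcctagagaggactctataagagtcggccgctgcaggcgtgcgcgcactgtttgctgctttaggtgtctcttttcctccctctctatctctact

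Each of the 5 windows held the GC box core, and 35.7% of all 32851 mouse promoter windows of the same length held it too. Bmp4, Msx1, Msx2 and Id2 had 1 match each. Id3 had 2 overlapping matches, at positions -94 and -90 counted from the gene's start. The match of Bmp4 began at -38, that of Msx1 at -72, that of Msx2 at -160 and that of Id2 at -16. The 5 windows were 60.0% to 70.0% G and C, above the median of 52.7% over all windows, which bears on how often any G- and C-rich word occurs. The palindrome GGCGCC, bound by Smad1 and Smad5, was found in the Id2 window alone, at -231, and in 11.9% of all windows. GTCT, the Smad box, or its reverse complement occurred in 4 of the 5 windows and in 88.0% of all windows. The E-box CACGTG occurred in the Bmp4 window, at -188, and in 7.15% of all windows. These matches describe the letters of the windows, and binding was not measured.

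Among the ligands, Bmp4 rose and the other two were not called. Bmp4 (chromosome 14, 46999089 to 47010344 of mm9) encodes the BMP ligand needed for mesoderm formation in the mouse embryo. It stood at 8.46 FPKM with doxycycline and at 1.83 FPKM without it, a 4.62-fold rise (95% interval 3.71 to 5.77, q given as 0 in the authors' deposited table). With doxycycline its level was above that of 65.3% of tested rows, against 42.9% without.

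Bmp2 (chromosome 2, 133377895 to 133388621), a close relative of Bmp4 with a part in heart and amnion formation, stood at 1.34 FPKM with doxycycline and at 1.21 FPKM without it. Its fold of 1.11 had an interval of 0.936 to 1.32, so the interval leaves out a rise of the size of Bmp4 (q = 0.476 in the authors' deposited table). Bmp7 (chromosome 2, 172693513 to 172765822), a ligand of kidney and eye development, was low in both groups, at 0.275 FPKM with doxycycline and 0.295 FPKM without it. Its fold was 0.931, with an interval of 0.710 to 1.22 (q = 0.839 in the authors' deposited table).

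The makeup of the 3 ligand transcripts therefore differed between the groups. Bmp4 made up 83.9% of their summed FPKM with doxycycline and 54.9% without it. Bmp2 made up 13.3% with doxycycline and 36.2% without it. The Bmp4 level was 6.30 times that of Bmp2 with doxycycline and 1.52 times without it. These shares are ratios of group values and carry no error of their own.

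A pair of rows, Gm15222 and Gm15217, has the same locus as Bmp4, and in GENCODE vM21 both genes lie on the strand opposite to Bmp4, Gm15222 as an antisense transcript. The library protocol mentions no strand marking, so reads of such neighbours cannot be told apart where the genes overlap. Gm15222 stood at 0.385 FPKM with doxycycline and at 0.036 FPKM without it and was not called (q = 0.416 in the authors' deposited table). Gm15217 was not tested, at 0.0451 FPKM with doxycycline and 0.0339 FPKM without it. Both are far below Bmp4 in each group.

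The antagonist genes rose by very different amounts. Nog (chromosome 11, 89161952 to 89163873) encodes Noggin, a secreted protein that binds BMP ligands and keeps them from their receptors. It stood at 1.13 FPKM with doxycycline and at 0.173 FPKM without it, a 6.55-fold rise (95% interval 4.69 to 9.14, q given as 0 in the authors' deposited table). Without a pseudocount this was the largest fold of the 10 genes, but with 1 FPKM added to both values its log2 fold change was 0.86 in place of 2.71, below those of Msx1, Bmp4, Msx2 and Id1. It also had the widest interval of the 10, and its level with doxycycline was above that of only 36.8% of tested rows.

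Bambi (chromosome 18, 3507955 to 3516402) encodes a membrane pseudoreceptor that resembles type I receptors but lacks a kinase domain, and it is often expressed together with Bmp4 in vertebrate embryos. It stood at 3.80 FPKM with doxycycline and at 2.98 FPKM without it, a 1.27-fold rise (95% interval 1.13 to 1.43, q = 0.000675 in the authors' deposited table). Bambi thus rose with Bmp4, but its interval lay wholly below that of Bmp4. Its call did not hold with a Bonferroni adjustment over all tested rows. The pseudogene Bambi-ps1, which can share reads with it, stood at 0.612 FPKM with doxycycline and 0.817 FPKM without it and was not called.

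The level of Bmp4 was 7.49 times that of Nog with doxycycline and 10.6 times without it. Bambi, by contrast, was below Bmp4 with doxycycline (3.80 against 8.46 FPKM) and above it without (2.98 against 1.83 FPKM).

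**Figure D2:**
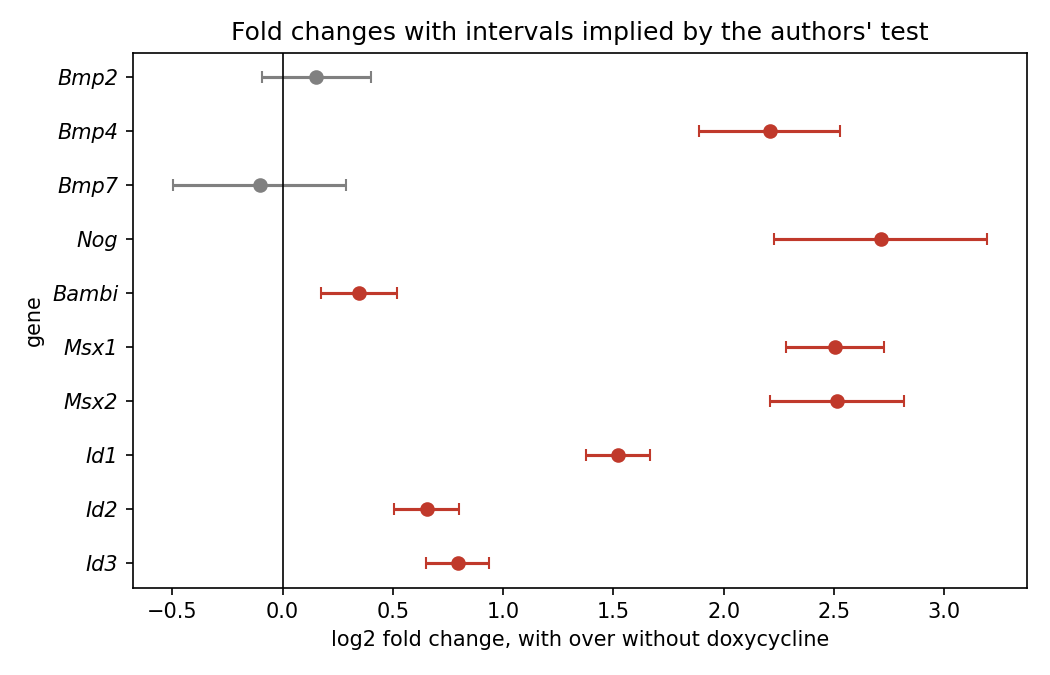
Log2 fold change (horizontal axis, cells with doxycycline over cells without) of the 10 genes, with the 95% interval implied by the authors' test statistic as a bar; red points were called at q under 0.05 and grey points were not. Nog, Msx1, Msx2 and Bmp4 lie between 2.21 and 2.71, Id1 at 1.52, and the bars of Bmp2 and Bmp7 cross 0.

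Msx1 and Msx2 differed in level, and both rose. Both encode homeodomain repressors that respond to BMP signalling in the neural tube border, limb and tooth. Msx1 (chromosome 5, 38211724 to 38215822) stood at 13.7 FPKM with doxycycline and at 2.41 FPKM without it, a 5.68-fold rise (95% interval 4.86 to 6.62). Msx2 (chromosome 13, 53562250 to 53568443) stood at 3.70 FPKM with doxycycline and at 0.648 FPKM without it, a 5.71-fold rise (95% interval 4.62 to 7.04). The q was given as 0 for both in the authors' deposited table, and their log2 fold changes, taken without a pseudocount, differed by 0.00804. With 1 FPKM added to each value they were 2.11 for Msx1 and 1.51 for Msx2, since the addition weighs more on the lower gene.

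The Msx1 level was 3.69 times the Msx2 level with doxycycline and 3.71 times without it, so the ratio of the paralogs hardly differed between the groups. Their log2 fold changes lay above those of 99.4% of tested rows with 1 FPKM or more in the higher group. The third Msx gene, Msx3, known from the dorsal neural tube and named here after its value was seen, had 0.0596 FPKM with doxycycline and 0.0337 FPKM without it and was not tested.

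The Id genes were the most abundant of the 10, and each of the 3 rose. Id proteins are helix-loop-helix proteins without a DNA-binding region. They pair with E proteins and keep these and their partners from DNA, and in mouse ES cells they are known to mediate the BMP signal that holds back neural differentiation. Id1 (chromosome 2, 152561987 to 152563146) stood at 104 FPKM with doxycycline and at 36.2 FPKM without it, a 2.87-fold rise (95% interval 2.60 to 3.17). Id3 (chromosome 4, 135699412 to 135701670) stood at 101 FPKM with doxycycline and at 58.5 FPKM without it, a 1.73-fold rise (95% interval 1.57 to 1.92). Id2 (chromosome 12, 25778666 to 25780957) stood at 36.2 FPKM with doxycycline and at 23.0 FPKM without it, a 1.57-fold rise (95% interval 1.42 to 1.74). The q was given as 0 for all 3 in the authors' deposited table.

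The order of the Id genes by level differed between the groups. With doxycycline Id1 and Id3 were nearly level, with an Id1 to Id3 ratio of 1.02, while without it that ratio was 0.619 and Id3 led. The summed level of the 3 was 242 FPKM with doxycycline and 118 FPKM without it. Id1 made up 43.0% of that sum with doxycycline and 30.8% without it, and Id2 15.0% with doxycycline and 19.5% without it. In FPKM, Id1 gained 67.6, Id3 43.0 and Id2 13.2, whereas the gain of Msx1 was 11.3 and that of Nog 0.957. The genes with the largest folds thus did not have the largest gains in level.

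**Figure D3:**
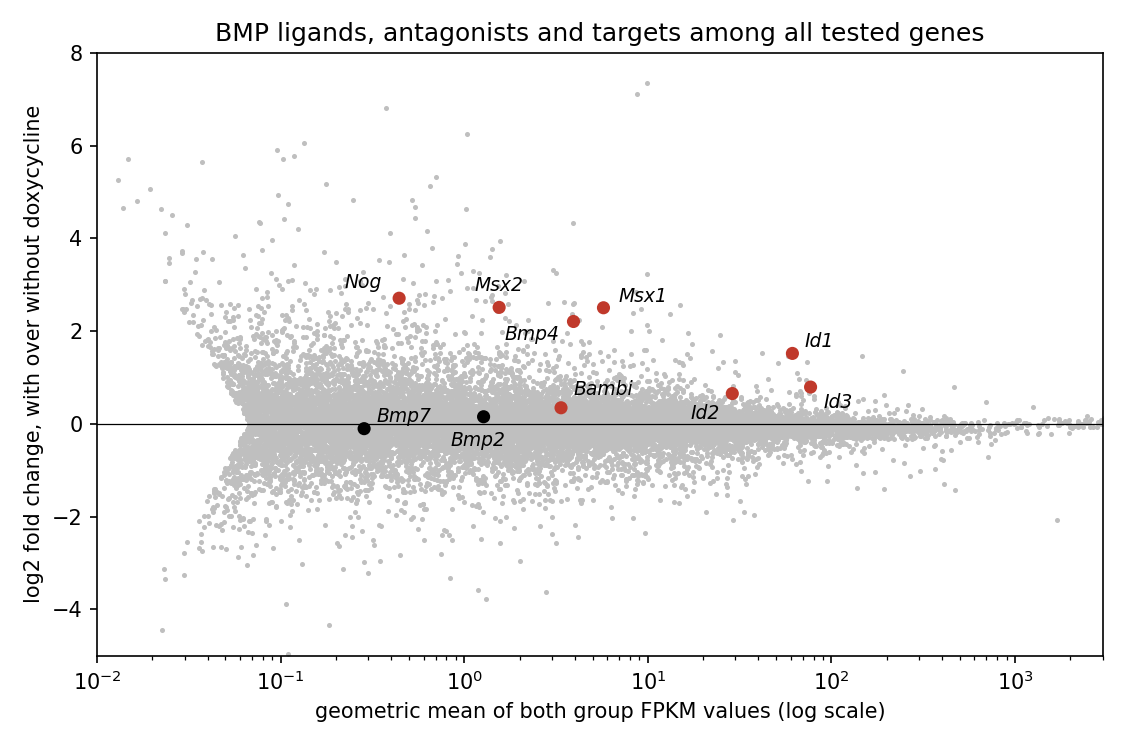
Log2 fold change (vertical axis, cells with doxycycline over cells without) against the geometric mean of the group FPKM values (log axis) for 18263 tested genes, in grey, with the 10 genes marked (red called, black not called); 21 others with a fold lie outside the axes. The Id genes lie at the high end of level with folds of 1.57 to 2.87, and Nog, Msx2, Msx1 and Bmp4 lie at low to middle levels above most of the cloud.

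Other genes of the pathway, taken by role, changed in both directions. Over 85 genes in 6 lists, 74 were tested, of which 21 rose and 15 fell while 38 stayed uncalled, with a median log2 fold change of 0.15. That is 48.6% called, against the 23.2% of all tested rows given above. The lists were chosen with earlier results of these data known, so the difference between these shares is a description and no test. The 10 genes are not in these lists. At an unadjusted p under 0.05, no receptor and no other ligand was lower, and no visceral endoderm marker was higher. Smad6 and Smad7 stand in 2 lists and were counted once in the sums.

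Most receptors stayed uncalled, as did most of all tested rows. Of the 7 tested genes 1 rose, none fell and 6 stayed uncalled. That is 14.3% called, against 23.2% of all tested rows. Acvr1, a type I receptor (also called ALK2), rose 1.42-fold, to 5.21 FPKM with doxycycline against 3.68 FPKM without it (q = 0.000194 in the authors' deposited table). Bmpr1a, a type I receptor that the mouse embryo needs to gastrulate, was the most abundant, at 18.5 FPKM with doxycycline and 18.4 FPKM without it, and its fold of 1.00 had an upper bound of 1.09. The type II receptor Bmpr2 stood at 1.35 FPKM with doxycycline and 1.33 FPKM without it.

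The activin and BMP type II receptor Acvr2b stood at 5.29 FPKM with doxycycline and 6.07 FPKM without it, and Acvr2a at 2.96 FPKM with doxycycline and 3.07 FPKM without it. Bmpr1b, a type I receptor known from cartilage, had 0.675 FPKM with doxycycline and 0.738 FPKM without it. Acvrl1, a type I receptor of endothelium, had 0.109 FPKM with doxycycline and 0.149 FPKM without it. None of these 4 was called.

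Among other BMP-family ligands, 1 of the 8 tested genes rose, none fell and 7 stayed uncalled, while 5 of the 13 listed were not tested. The share called was 12.5%, against 23.2% of all tested rows. Gdf3, a TGF-beta family ligand of pluripotent cells, was the only tested member of the list to reach 1 FPKM, at 10.6 FPKM with doxycycline and 9.86 FPKM without it (q = 0.480 in the authors' deposited table). The gene that rose was Bmp5, named after its values were seen, at 0.528 FPKM with doxycycline and 0.0289 FPKM without it. Its fold of 18.3 is poorly fixed, with an SE of 1.29 on the log2 scale (q = 0.00713 in the authors' deposited table).

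Extracellular modulators included genes that rose and genes that fell. Here 8 of the 21 tested genes rose, 6 fell and 7 stayed uncalled. That is 66.7% called, against 23.2% of all tested rows. The largest rise in level was that of Fst, encoding follistatin, which binds activins and also BMPs, to 20.2 FPKM with doxycycline against 5.05 FPKM without it (95% interval of the fold 3.47 to 4.62). Rgma and Rgmb, which encode GPI-anchored BMP co-receptors, rose 2.91-fold and 2.30-fold, to 2.88 and 4.61 FPKM with doxycycline. Nbl1, a secreted BMP antagonist of the DAN family, rose 2.61-fold to 3.03 FPKM. Bmp1, which is no BMP ligand but a protease that cleaves Chordin, rose 1.47-fold to 4.20 FPKM.

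Other genes of the same list fell. Cer1, which encodes the Nodal and BMP antagonist Cerberus, stood at 2.90 FPKM with doxycycline and 7.67 FPKM without it, 2.64-fold lower. Fstl1, a secreted follistatin-like protein known to bind BMP4, stood at 4.78 FPKM with doxycycline and 12.1 FPKM without it, 2.53-fold lower. Chrd, encoding the BMP antagonist Chordin, was 1.63-fold lower, at 0.739 FPKM with doxycycline and 1.20 FPKM without it. Twsg1, encoding a Chordin- and BMP-binding protein, was 1.16-fold lower, at 11.5 FPKM with doxycycline and 13.3 FPKM without it. Among secreted antagonists the directions thus differed by gene. Nog, Fst and Nbl1 rose, and Cer1 and Chrd fell.

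In the Smad list 4 of the 16 tested genes rose, 6 fell and 6 stayed uncalled. That is 62.5% called, against 23.2% of all tested rows. The signal-carrying Smad1, at 6.32 FPKM with doxycycline and 5.78 FPKM without it, was not called, and neither was Smad5, at 8.30 FPKM with doxycycline and 7.94 FPKM without it. Smad9, the third of these Smads, was low but rose 1.85-fold, to 0.0894 FPKM with doxycycline against 0.0483 FPKM without it (q = 0.0166 in the authors' deposited table). All 3 are named here after their values were seen. Smad4, the partner shared by BMP and Nodal signalling, fell 1.29-fold, to 21.7 FPKM with doxycycline against 27.9 FPKM without it (q = 0.00445 in the authors' deposited table).

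The inhibitory Smads went opposite ways. Smad6, a feedback inhibitor induced by BMP, rose 2.74-fold, to 3.11 FPKM with doxycycline against 1.14 FPKM without it. Smad7, which inhibits both the BMP and the TGF-beta branch, fell 1.62-fold, to 4.32 FPKM with doxycycline against 7.02 FPKM without it (q = 3.77e-08 in the authors' deposited table). The ubiquitin ligase gene Smurf1 rose 1.45-fold, to 6.79 FPKM with doxycycline against 4.69 FPKM without it, while its relative Smurf2 fell 1.19-fold, to 8.70 FPKM with doxycycline against 10.4 FPKM without it.

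Ski, a co-repressor of Smads, fell 1.72-fold, to 10.7 FPKM with doxycycline against 18.3 FPKM without it. Its relative Skil (37.2 FPKM with doxycycline and 40.6 FPKM without it) was not called, nor was the phosphatase gene Ppm1a (46.3 FPKM with doxycycline and 48.9 FPKM without it). The small C-terminal phosphatase genes differed among themselves. Ctdsp1 rose 1.64-fold to 28.4 FPKM, whereas Ctdsp2 fell 1.31-fold to 12.4 FPKM and Ctdspl 1.67-fold to 1.37 FPKM.

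Other genes known to respond to BMP in some tissue were mostly higher where called. Here 8 of the 21 tested genes rose, 3 fell and 10 stayed uncalled. That is 52.4% called, against 23.2% of all tested rows, of which 10.5% rose and 12.7% fell. Tfap2a, a transcription factor of surface ectoderm and neural crest, stood at 2.50 FPKM with doxycycline and 0.180 FPKM without it, a 13.9-fold rise. Dlx3, a homeobox gene of surface ectoderm and placenta, stood at 1.17 FPKM with doxycycline and 0.101 FPKM without it, an 11.6-fold rise. Id4, the fourth Id gene, rose 2.30-fold, to 2.71 FPKM with doxycycline against 1.18 FPKM without it, so that each of the 4 Id genes was higher with doxycycline. The T-box gene Tbx3 rose 1.72-fold to 2.63 FPKM.

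Besides Smad7, the genes of this list that fell were Hey1 and Ifitm3. Hey1, a Notch-responsive repressor that BMP can also induce, stood at 1.39 FPKM with doxycycline and 2.60 FPKM without it, 1.87-fold lower. Ifitm3, a surface protein gene of early germ cells, stood at 70.2 FPKM with doxycycline and 93.0 FPKM without it, 1.33-fold lower. Of the 3 E protein genes, whose products Id proteins bind, none rose and 1 fell, and at an unadjusted p under 0.05 Tcf4 was higher. The share called was 33.3%, against 23.2% of all tested rows. Tcf3 (the E2A gene) stood at 56.4 FPKM with doxycycline and 62.2 FPKM without it, and Tcf4 (E2-2) at 6.42 FPKM with doxycycline and 5.35 FPKM without it, both uncalled. Tcf12 (HEB) fell 1.19-fold, to 11.9 FPKM with doxycycline against 14.2 FPKM without it (q = 0.0455 in the authors' deposited table).

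**Figure D4:**
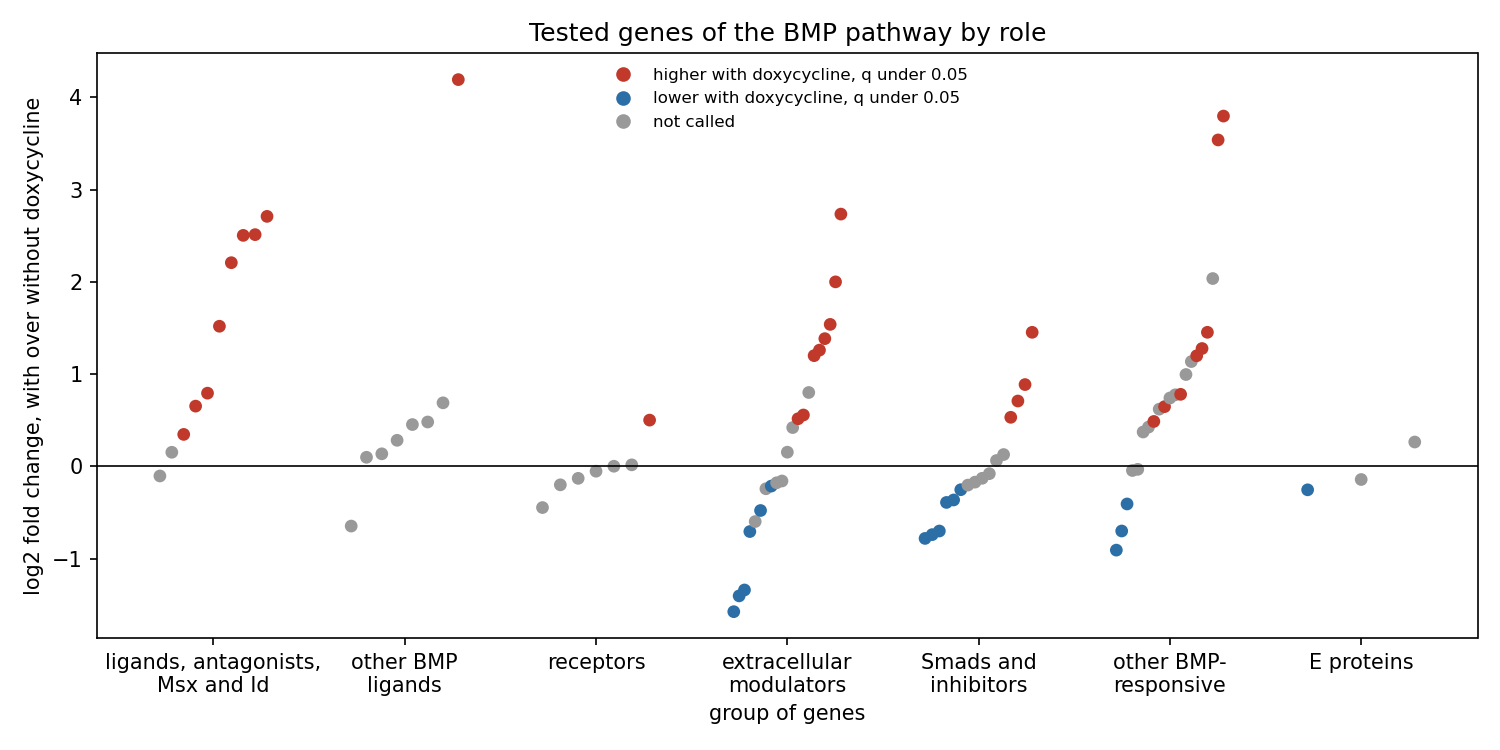
Log2 fold change (vertical axis, cells with doxycycline over cells without) of each tested gene, by role in the BMP pathway; red genes rose, blue genes fell and grey genes were not called at q under 0.05. The 10 genes at the left include no blue point, receptors lie between -0.45 and 0.50, and modulators and Smads have points of both colours (8 rose and 6 fell, 4 rose and 6 fell).

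Markers of the cells in the culture were read beside these values, and their part in the BMP results was not tested. Of all tested rows 23.2% were called, 10.5% as higher with doxycycline and 12.7% as lower. Of tested markers, 66.7% of the ES and epiblast, 100% of the primitive streak and 62.5% of the visceral endoderm list were called. For fibroblast, trophoblast and ectoderm markers the shares were 57.1%, 33.3% and 75%. These shares are a description and no test. ES and epiblast markers were high in both groups, with Pou5f1 at 1058 FPKM with doxycycline and 999 FPKM without it, in keeping with cells labelled as ES cells. Of the 6 listed, 1 rose and 3 fell, with sums of 1515 FPKM with doxycycline and 1616 FPKM without it, most of each being Pou5f1. Nanog rose 2.54-fold, to 117 FPKM with doxycycline against 46.0 FPKM without it. Utf1 fell 2.64-fold, to 119 FPKM with doxycycline against 314 FPKM without it. Dppa4 fell 1.23-fold and Lin28a 1.21-fold, while Pou5f1 and Sox2 were not called. All 5 primitive streak markers rose, with a summed level of 151 FPKM with doxycycline against 21.9 FPKM without it, most of it T (Brachyury) at 103 FPKM with doxycycline. Of 8 visceral endoderm markers none rose and 5 fell, and their summed level was 136 FPKM with doxycycline and 169 FPKM without it. Of 7 tested fibroblast markers 1 rose and 3 fell, with sums of 16.0 FPKM with doxycycline and 16.7 FPKM without it. Col1a1 rose, to 4.43 FPKM with doxycycline against 1.11 FPKM without it, while Thy1, Dcn and Pdgfrb fell. Of 6 trophoblast markers 1 rose and 1 fell, with sums of 6.35 FPKM with doxycycline and 3.36 FPKM without it. Krt7 was the marker that fell, to 0.856 FPKM with doxycycline against 1.86 FPKM without it. Cdx2, a caudal homeobox gene of trophoblast and of posterior mesoderm, was the marker that rose, to 3.85 FPKM with doxycycline against 0.262 FPKM without it, and Elf5 stood at 0.0678 FPKM with doxycycline and 0.0693 FPKM without it. Of 4 tested surface and neural ectoderm markers 1 rose and 2 fell. Their summed level was 5.73 FPKM with doxycycline and 14.9 FPKM without it, most of it the neural marker Nes. Nes fell to 5.24 FPKM with doxycycline against 13.8 FPKM without it, and Pax6 fell to 0.260 against 1.05 FPKM. The surface ectoderm marker Trp63 was low but rose, to 0.132 FPKM with doxycycline against 0.0160 FPKM without it. Krt14 stood at 0.101 FPKM with doxycycline and 0.0962 FPKM without it and was not called. No marker with a row was at 0 in a group.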

How the data were processed

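The submitters' processing notes name the build mm9 and the tools Cuffdiff, Cufflinks 2.0.2, TopHat2 2.0.8, Picard and Bowtie. For annotation, scaling and filters, the sources used here give nothing. The authors deposited 1 FPKM value per group, combining 3 libraries, with a log2 fold change, a test statistic (a score), a p-value and a q-value, per the file header. Infinite fold changes are coded as a very large number and were left out of medians. A call is status OK with q under 0.05, and 18162 rows were not tested. Refitting was not possible without values per library.

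The deposited statistic, read as a normal deviate, gave the deposited p to within 1e-04 in 18284 of 18537 tested rows, all 10 genes included. The SE is the log2 fold change divided by it, and the interval is 95%. The arithmetic of this step and of the p-value adjustments was checked on simulated data. The simulated statistic was made as log fold change over SE, so the check cannot show that the deposited one is built that way. Table starts were read from 0, since spans then equalled those of GENCODE vM21 in 11723 of 28028 rows, and are printed from 1. Of the 10 genes, 5 were matched by symbol in the RefSeq promoter table and printed. Member windows on chromosome 18, where Bambi lies, were left out by rule. Python 3.11.15, numpy 2.4.6, pandas 2.3.3, scipy 1.17.1 and matplotlib 3.10.9 were used.

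The genes and lists were chosen with earlier results of these data known. Named besides the 10 were every tested receptor and E protein and, in the other pathway lists, members reaching 10 FPKM and up to 5 called genes a direction with the largest folds at 1 FPKM or more. A q listed as 0 is below what the file prints. Alternatives were other thresholds, adjustments, pseudocounts, centring and a filter on low values.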

Additional observations from a re-analysis of the deposited data

How the results depend on the processing

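For the 10 genes, other thresholds, adjustments and the filter gave 49 new calls, of which 45 were as before. Many of the 45 were fixed in advance. The other thresholds and adjustments are stricter, so the uncalled Bmp2 and Bmp7 could not gain a call by them. For 7 of the called genes p and q are given as 0, which passes any adjustment, so only the minimum fold could change their calls. Pseudocounts and centring gave 40 new values, but no new test. All kept their direction, which was fixed in advance. Adding the same amount to both values cannot reverse a direction. Centring took away a median of -0.03 or -0.04, nearer to no change than any of the 10 log2 fold changes, of which Bmp7 was nearest at -0.10. A pseudocount of 1 FPKM lowered the log2 fold changes of low genes most, to 0.86 for Nog, 1.51 for Msx2, 1.74 for Bmp4 and 2.11 for Msx1, so that Nog fell below these and Id1 (1.49). With 0.1 FPKM they were 2.17 for Nog, 2.34 for Msx2 and 2.46 for Msx1. With a minimum fold of 2, calls were lost for Bambi (log2 fold change 0.35), Id2 (0.65) and Id3 (0.79), which leaves 5 of the 10 genes called. With a Bonferroni adjustment only Bambi (0.35) lost its call among the 10. The pathway lists had 36 calls in the authors' deposited table, 15 with a minimum fold of 2 (12 higher, 3 lower) and 19 with Bonferroni adjustment (11 higher, 8 lower). Over all tested rows the 4306 calls became 1068 with a minimum fold of 2 (656 higher, 412 lower), 1664 with Bonferroni and 2855 with Benjamini-Yekutieli adjustment. With the filter at 1 FPKM, Bmp7 gave no value. No paired analysis was possible because the table holds 1 value per group, and leaving out each library was not run for the same reason. Depth is unknown, so how far counting limits the low genes, such as Bmp7, cannot be given.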

Other observations

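Near Id1, within 20 kb, lies Cox4i2, which encodes a subunit isoform of cytochrome c oxidase. It stood at 3.69 FPKM with doxycycline and 2.25 FPKM without it, a 1.64-fold rise (q = 0.00034 in the authors' deposited table). Gm14162, also within 20 kb of Id1, had 0.166 FPKM with doxycycline and 0.230 FPKM without it and was not called. No other row within 20 kb of the 10 genes was called.

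Genes of the pathway lists that had only a row shared with another gene were left out of the counts. The row of Ak1 and Eng (Eng encodes the BMP co-receptor endoglin) stood at 24.0 FPKM with doxycycline and 19.8 FPKM without it and was not called. The row of 9230102O04Rik and Gata3, a transcription factor of trophoblast and surface ectoderm, stood at 0.949 FPKM with doxycycline and 0.435 FPKM without it (q = 0.0668 in the authors' deposited table).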
